A study of Mus musculus with 6 samples.

Results

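The genes described here encode the carriers that set chloride, bicarbonate, proton and sodium-dependent calcium gradients across cell membranes. They were taken by symbol as every row of the deposited table named Slc4a, Slc8a, Slc9a, Slc12a or Slc24a with a number, which gave 36 of 24419 genes. By family these were 10 bicarbonate transporters and anion exchangers (Slc4), 3 sodium-calcium exchangers (Slc8), 9 sodium-proton exchangers (Slc9), 9 cation-chloride cotransporters (Slc12) and 5 potassium-dependent sodium-calcium exchangers (Slc24). Of the 36, 30 had a mean of at least 1 CPM (the deposited unit, counts scaled by library depth) over all libraries and were tested, and 6 lay under it.

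All libraries came from male wild-type C57BL/6N mice whose middle cerebral artery had been occluded for 60 min. Vehicle animals and 15-HETrE animals received injections into the blood at 24, 48 and 72 h, in 150 µL of phosphate-buffered saline, with 600 ng of 15-HETrE, a hydroxylated fatty acid, in the treated group. On day 4 the cortex next to the infarct was digested with pronase for 75 min and sorted for cells bearing Thy1 but not ACSA2, CD31, CD45 or O4, a gate meant to enrich neurons. Each group had 3 RNA-seq libraries, and the labels name neither the age of the animals nor whether each library was 1 animal, so the spread behind each p-value is that of these libraries and may be technical.

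In mature neurons the potassium-chloride cotransporter KCC2, the product of Slc12a5, carries chloride out of the cell, while NKCC1, the product of Slc12a2, carries it in. Their balance sets the chloride gradient and with it whether GABA opens an inhibitory or a depolarizing current. Bicarbonate carriers and sodium-proton exchangers hold pH in the cytosol and in endosomes, and sodium-calcium exchangers clear calcium from the cytosol in exchange for sodium, or let it in when the sodium gradient collapses, as it does in ischemia.

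The libraries are called vehicle 1, vehicle 2, vehicle combined, 15-HETrE 1, 15-HETrE unnumbered and 15-HETrE combined after their column names, and values per library are given in that order throughout. They held 5405245 to 22558400 reads, fewest in the combined libraries, and vehicle 1 and vehicle 2 were the closest pair (r = 0.970 over all genes kept, against 0.817 to 0.919 for the other pairs). The column names of vehicle 1, vehicle 2 and 15-HETrE 1 share a prefix (the first prefix), and the combined libraries form a pair of their own (the combined pair); what either stands for is not given in the labels. The 15-HETrE minus vehicle difference of log2(CPM + 1) within each is given beside some of the results. Summed fibroblast markers (7 genes, 0 of 7 higher in 15-HETrE) ranged from 88.1 to 11805 CPM in vehicle and from 43.5 to 1770 CPM in 15-HETrE libraries, and pericyte markers (6 genes, 0 of 6 higher) from 557 to 981 and from 162 to 506 CPM. Pan-neuronal markers (12 genes, 11 higher) ranged from 2093 to 3608 CPM and from 3405 to 6446 CPM. Astrocyte markers (8 genes, 7 higher) ranged from 634 to 7605 CPM and from 1337 to 20712 CPM, although the gate was set against an astrocyte antigen. Oligodendrocyte markers (8 genes, 8 higher) ranged from 13685 to 21560 CPM and from 15345 to 29648 CPM, although the gate was also set against O4. In every library their sum lay above that of the pan-neuronal markers. The median difference of the oligodendrocyte markers was 0.21 over all 6 libraries, but -0.17 for the first prefix and -0.16 for the combined pair. The highest sum, 29648 CPM, was that of 15-HETrE unnumbered, which is in neither set. None of the defining markers of these 5 lists was at 0 in all libraries, and the part of other cell types in the results below was not tested except where a value is given. In such sorted pools, fewer cells of a type and less RNA per cell cannot be told apart.

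Promoter sequence is shown for the 3 transporter genes with the smallest p, Slc8a1, Slc12a7 and Slc12a5, as the 250 bases before the start site in RefSeq (GRCm38.p6), 5′ to 3′ on the gene's strand. Slc8a1 has 1 listed start, and of the overlapping windows listed for Slc12a7 the first is shown, which lies inside the span GENCODE gives the gene. Both starts of Slc12a5 are shown, since its transcripts begin at alternative first exons. Capitals mark matches, on either strand, to the GC box GGGCGG, the E-box CACGTG, the TATA motif TATAAA or the cAMP response element TGACGTCA.
Slc8a1, chr17:81738388-81738637, minus strand: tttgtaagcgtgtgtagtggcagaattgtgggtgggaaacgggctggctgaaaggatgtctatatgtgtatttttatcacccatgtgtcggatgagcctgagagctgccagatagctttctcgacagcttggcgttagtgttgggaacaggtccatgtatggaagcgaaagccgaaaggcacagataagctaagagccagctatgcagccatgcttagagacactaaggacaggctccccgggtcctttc
Slc12a7, chr13:73763410-73763659, plus strand: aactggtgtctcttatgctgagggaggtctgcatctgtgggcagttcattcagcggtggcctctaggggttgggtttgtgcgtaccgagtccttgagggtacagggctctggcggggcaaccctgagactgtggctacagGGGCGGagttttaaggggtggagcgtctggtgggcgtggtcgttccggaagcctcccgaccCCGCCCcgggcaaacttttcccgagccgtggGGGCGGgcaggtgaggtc
Slc12a5 upstream start, chr2:164960596-164960845, plus strand: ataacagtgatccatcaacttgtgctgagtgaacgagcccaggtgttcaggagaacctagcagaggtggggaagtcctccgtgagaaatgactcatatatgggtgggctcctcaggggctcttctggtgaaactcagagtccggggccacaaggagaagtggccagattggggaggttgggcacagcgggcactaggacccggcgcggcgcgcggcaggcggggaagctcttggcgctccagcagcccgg
Slc12a5 downstream start, chr2:164967738-164967987, plus strand: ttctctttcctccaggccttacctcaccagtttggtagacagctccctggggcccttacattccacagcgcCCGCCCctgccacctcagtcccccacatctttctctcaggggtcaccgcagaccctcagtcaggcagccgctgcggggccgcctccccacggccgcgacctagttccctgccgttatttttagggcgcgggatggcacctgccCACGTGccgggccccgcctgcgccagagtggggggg
The Slc8a1 window held none of the 4 motifs, with 50.4% GC and 8 CpG dinucleotides, and the Slc12a7 window held 3 GC boxes, with 63.6% GC and 15 CpG. The other listed Slc12a7 window, which overlaps it, held 6 GC boxes and 1 E-box. Of the Slc12a5 windows, the upstream one held none of the motifs and the downstream one held 1 GC box and 1 E-box. Over the 32851 windows of all genes, a GC box occurred in 32.7%, an E-box in 6.02%, a TATA motif in 12.4% and a cAMP response element in 1.55%. The 36 windows listed for 27 of the transporter genes held them in 41.7%, 13.9%, 13.9% and 0%, in that order of motifs. A match is a description of the letters and not a binding site.

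Levels differed widely between the members. Per kilobase of exon (union of exons, GENCODE M21 basic), Slc12a2 stood highest at a mean of 106 CPM per kb over the 6 libraries (range 73.8 to 146), followed by Slc24a2, a neuronal exchanger that extrudes calcium, at 75.4 (47.2 to 108). Their ranges overlapped. Below them came Slc12a5 at 31.2 CPM per kb (13.0 to 55.6), Slc4a10, a sodium-driven bicarbonate transporter of neurons, at 28.7 (19.1 to 50.4), and Slc8a1, the exchanger NCX1, at 21.1 (12.2 to 29.7), which also overlapped each other. Together the 36 genes summed to 3261, 2869 and 2567 CPM in the vehicle libraries and to 4017, 3945 and 3354 CPM in the 15-HETrE libraries. The sums did not overlap, as was so on the higher side for 6.84% of all single genes tested. As a share of all reads, vehicle 1 and 15-HETrE combined were nearly equal, at 0.309% and 0.310%. The most abundant members in CPM, which weigh most in the sums, were Slc24a2, Slc12a2 and Slc8a1.

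**Figure D1:**
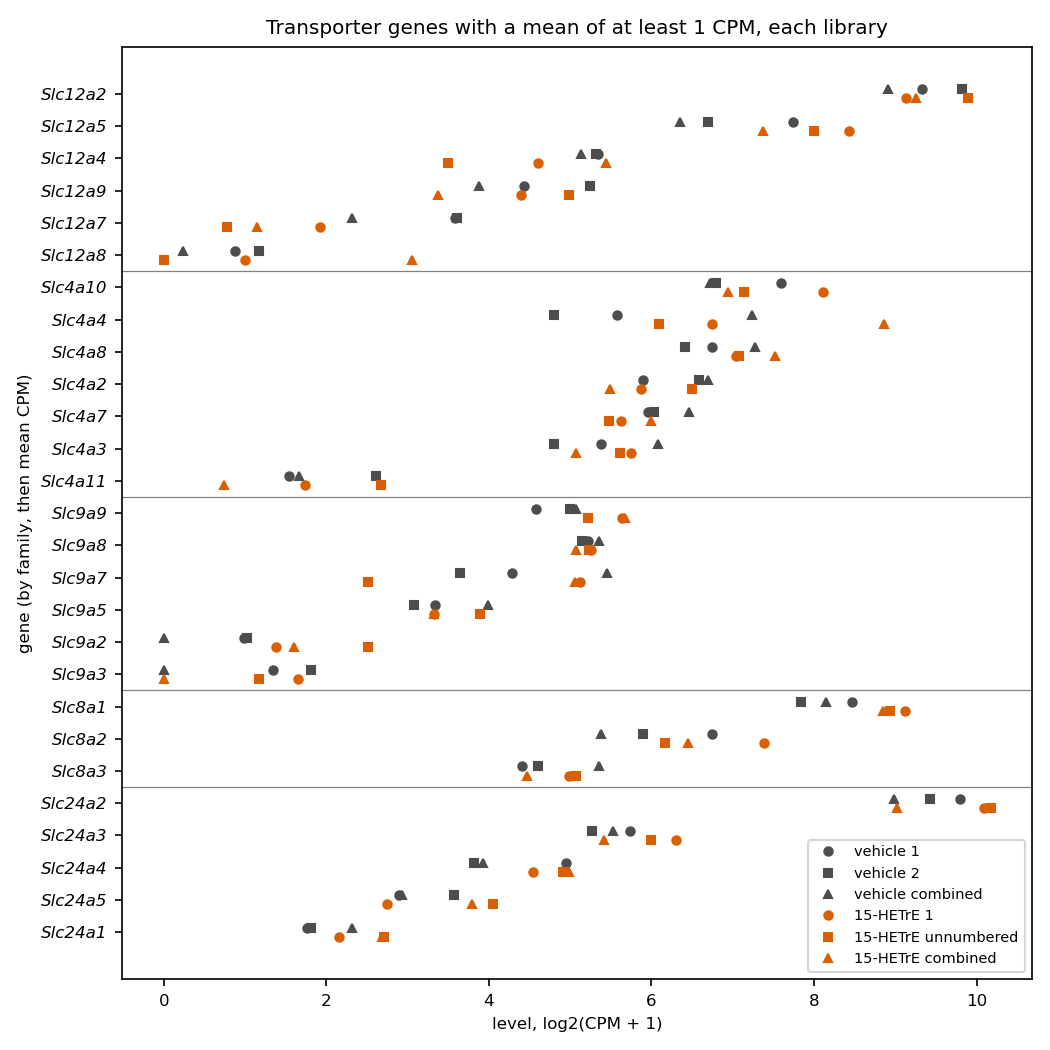
Level of 27 of the transporter genes tested, as log2(CPM + 1) on the horizontal axis, with 1 point per library; grey symbols are vehicle and orange symbols 15-HETrE, and lines divide the families. Slc12a2, Slc24a2 and Slc8a1 stand at the right, and the points of both groups overlap for 23 of the 27 genes.

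None of the 30 members passed limma's test over all 14523 genes at an adjusted p of 0.05, as no gene did in either direction (0% called). At an unadjusted p under 0.05, 2 members were higher in 15-HETrE (Slc8a1 and Slc12a5, where 4.27% of all genes were) and 1 was lower (Slc12a7, where 5.23% were). On the whole reads, the quasi-likelihood test of edgeR called 0 members and put the same 3 genes under an unadjusted p of 0.05, where 3.64% of all genes were higher and 4.84% lower. DESeq2 called 0 members, with 0.241% of all genes called higher and 0.895% lower, and its smallest adjusted p among the members was 0.105 for Slc8a1. Vehicle and 15-HETrE values were fully apart for 3 members on the higher side (Slc8a1, Slc9a9 and Slc9a2, against 6.84% of all genes) and for 1 on the lower side (Slc12a7, against 8.32%), which is near the background. Slc9a2 (means 0.672 CPM in vehicle and 2.78 CPM in 15-HETrE) and Slc12a8 (0.760 and 2.77 CPM) reached a mean of 1 CPM only through the 15-HETrE libraries. Their higher values there are no support for a direction, here or in the next count. On the log2(CPM + 1) scale, 20 of the 30 had a fitted change above 0, against 51.0% of all genes, and 10 one below 0, against 49.0%, and the median change was 0.35, against 0.02 over all genes. For the 240 other Slc genes tested, 120 lay above 0 and the median was -0.01. Of the pan-neuronal markers 11 of 12 lay above 0, with a median of 0.81. Of the fibroblast markers 0 of 7 did, with a median of -2.83. The part of the cell content of the libraries in the members' median was not tested.

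Single libraries weighed on these summaries. Without 15-HETrE 1 the median of the members was 0.20, and the members under an unadjusted p of 0.05 (limma) numbered 0 of 29 without vehicle 2, where 4.96% of all genes did, and 6 of 33 without vehicle combined, where 14.7% did. At an adjusted p, limma called 0 members without vehicle combined, where 0.0138% of all genes were called higher and 0.743% lower. It also called 0 members without both combined libraries, where 0.0206% and 1.38% were. In counts chosen after seeing the data, 12 members lay higher and 4 lower with no overlap once both combined libraries were left out, where 20.9% and 25.8% of all genes did. Without vehicle combined alone the counts were 6 and 2, where 14.1% and 20.4% did. Library weights discounted vehicle combined (0.206), 15-HETrE combined (0.441) and 15-HETrE unnumbered (0.51). The others had 3.75 (vehicle 2), 3.16 (15-HETrE 1) and 1.82 (vehicle 1), so the 15-HETrE side rested mostly on 15-HETrE 1. With these weights, limma called 6 members higher (Slc8a1, Slc12a5, Slc4a4, Slc8a2, Slc9a9 and Slc24a3) and 1 lower (Slc12a7), where 7.29% and 9.41% of all genes were called.

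**Figure D2:**
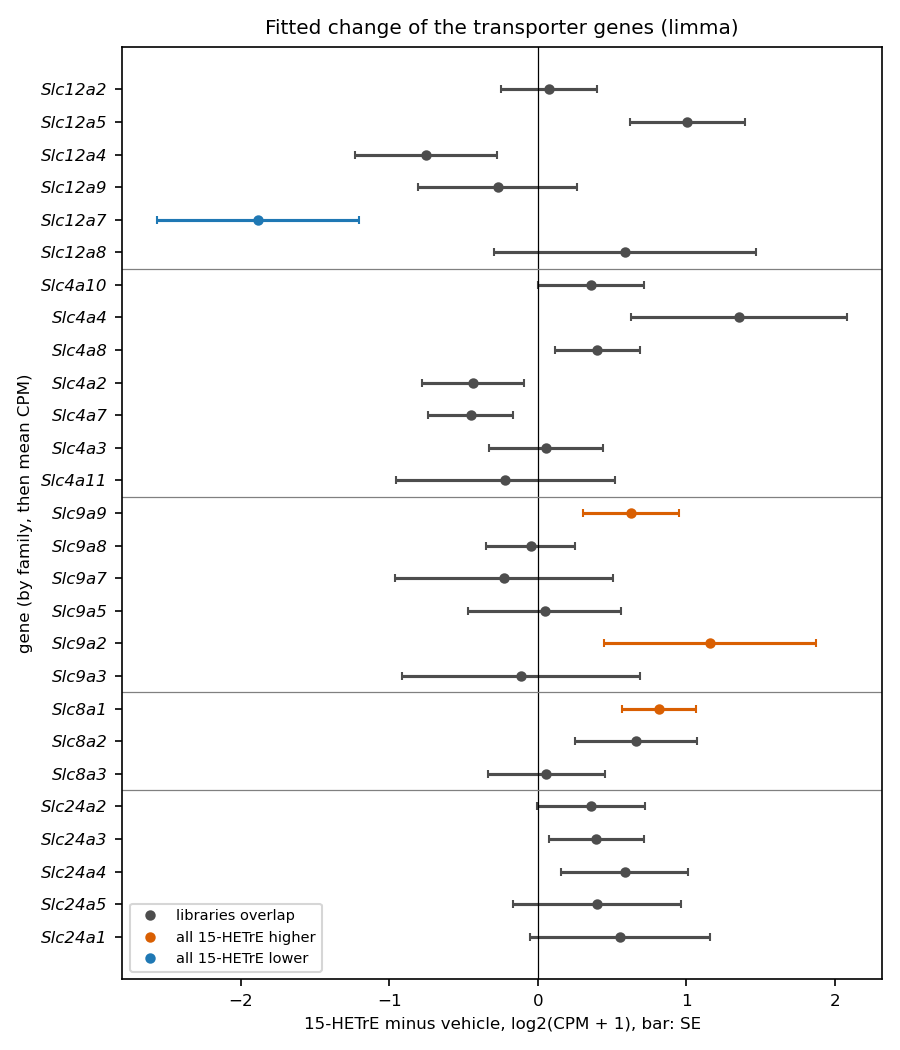
Fitted change of 27 of the transporter genes tested, 15-HETrE minus vehicle on the log2(CPM + 1) scale with its standard error (limma, 3 libraries per group); orange and blue mark genes whose libraries do not overlap between groups. Slc8a1, Slc9a9 and Slc9a2 lie to the right without overlap and Slc12a7 to the left, and no gene passed the test over all genes. Slc9a2 reached the mean needed for testing only through its 15-HETrE libraries.

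Among the sodium-calcium exchangers, Slc8a1 (chromosome 17, 81373105 to 81738377, GRCm38) had the smallest p of all members. It stood at 352, 228 and 282 CPM in vehicle and at 553, 487 and 459 CPM in 15-HETrE libraries, from 1566 to 12156 reads each. Every 15-HETrE library lay above every vehicle library. The means were 287 ± 62.5 and 500 ± 48.6 CPM (SD, n = 3 per group), with a log2 change of 0.82 (SE 0.25, unadjusted p 0.00837, adjusted p 0.422, limma). Leaving out any 1 library gave 0.66 to 0.97, and the difference was 0.96 for the first prefix and 0.70 for the combined pair. The pan-neuronal markers had a median difference of 0.81 over all libraries, 1.14 for the first prefix and 1.19 for the combined pair. The part of the neuronal content of the libraries in the Slc8a1 difference was not tested. The promoter window of Slc8a1, shown above, held none of the motifs searched.

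Slc8a2, the NCX2 exchanger of neurons, stood at 106, 58.6 and 40.6 CPM in vehicle and at 167, 70.7 and 86.4 CPM in 15-HETrE libraries. Vehicle 1 lay above 15-HETrE unnumbered and 15-HETrE combined, so the groups overlapped, and the log2 change was 0.66 (SE 0.41, adjusted p 0.637, limma). It was 0.30 without 15-HETrE 1, 0.35 without vehicle combined and 1.03 without vehicle 1. The difference was 1.07 for the first prefix and 1.07 for the combined pair, beside 1.14 and 1.19 for the pan-neuronal markers. The part of the neuronal content of the libraries in the Slc8a2 difference was not tested. Slc8a3, the NCX3 exchanger, stood at 20.1, 23.3 and 39.7 CPM and at 30.5, 32.6 and 21.2 CPM, with a log2 change of 0.06. Its order turned around between the sets of names, with a difference of 0.48 for the first prefix and -0.87 for the combined pair.

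The potassium-dependent sodium-calcium exchangers all had a fitted change above 0, from 0.36 to 0.59 (log2 scale), with overlapping libraries for all 5. Of all genes, 51.0% had a change above 0. The sign did not hold within both sets of names for Slc24a3 (0.80 for the first prefix, -0.11 for the combined pair) and Slc24a5 (-0.48 and 0.85). Slc24a2 stood at 892, 686 and 506 CPM in vehicle and at 1094, 1154 and 517 CPM in 15-HETrE libraries. 15-HETrE 1 and 15-HETrE unnumbered were the highest of all, while the combined libraries of both groups were the lowest and nearly equal. The change was 0.36 (SE 0.37, adjusted p 0.776, limma), 0.48 for the first prefix and 0.03 for the combined pair. It was 0.15 without vehicle combined or without 15-HETrE unnumbered, 0.19 without 15-HETrE 1, 0.56 without vehicle 1 and 0.73 without 15-HETrE combined. Slc24a3 stood at 52.1, 37.6 and 45.1 CPM and at 77.6, 62.9 and 41.8 CPM, again with the combined 15-HETrE library among the vehicle values. For Slc24a4 the values were 29.9, 13.1 and 14.2 CPM and 22.4, 29.2 and 30.7 CPM, and the change was 0.59 (SE 0.43, adjusted p 0.694, limma), 0.38 without vehicle 2 and 0.94 without vehicle 1. Vehicle 1 stood among the 15-HETrE values.

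The rarer Slc24a1, the exchanger of rod photoreceptors, stood at 2.38, 2.52 and 3.96 CPM in vehicle and at 3.46, 5.55 and 5.41 CPM in 15-HETrE libraries, with 22 to 93 reads. Slc24a5, an exchanger of pigment cells, had 6.40, 10.8 and 6.65 CPM and 5.69, 15.6 and 12.8 CPM. Exons of Myef2 on the opposite strand cover 36.5% of its exon length, and Myef2 had a mean of 78.7 CPM, so without knowledge of strand in the counting the reads of this pair cannot be told apart.

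Chloride cotransporters went different ways. Slc12a5 (chromosome 2, 164960802 to 164999731, GRCm38) stood at 213, 102 and 80.7 CPM in vehicle and at 345, 255 and 165 CPM in 15-HETrE libraries. Vehicle 1 lay above 15-HETrE combined, and the other values of the groups were apart. The means were 132 ± 71.2 and 255 ± 90.1 CPM (SD, n = 3 per group), with a log2 change of 1.01 (SE 0.39, unadjusted p 0.0268, adjusted p 0.487, limma). The difference was 1.22 for the first prefix and 1.02 for the combined pair, while leaving out any 1 library gave 0.72 to 1.42. Beside them, the pan-neuronal markers had a median difference of 0.81 over all 6, 1.14 among the first-prefix libraries and 1.19 between the combined ones, and the part of the neuronal content of the libraries in the Slc12a5 difference was not tested.

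Slc12a2 (chromosome 18, 57878678 to 57946821) stood at 642, 903 and 481 CPM in vehicle and at 561, 949 and 610 CPM in 15-HETrE libraries. The groups covered nearly the same range, with vehicle 2 and 15-HETrE unnumbered highest. The log2 change was 0.07 (SE 0.32, adjusted p 0.954, limma), and its sign depended on the libraries, at -0.44 for the first prefix and 0.34 for the combined pair. As the difference of log2(CPM + 1), the ratio of Slc12a5 to Slc12a2 was -1.58, -3.13 and -2.56 in vehicle and -0.70, -1.89 and -1.88 in 15-HETrE libraries. Vehicle 1 lay above 15-HETrE unnumbered and 15-HETrE combined. The group means were -2.42 ± 0.78 and -1.49 ± 0.69 (SD, n = 3 per group), a difference of 0.93 with p = 0.30 in an exact two-sided permutation test, where 3 against 3 cannot go below 0.10. The difference was 0.54 without 15-HETrE 1 and 0.58 without vehicle 2, and 1.66 for the first prefix and 0.68 for the combined pair. Per length, Slc12a5 was under Slc12a2 in every library, with ratios of 0.119 to 0.349 in vehicle and 0.283 to 0.646 in 15-HETrE libraries. These are ratios of whole libraries and not of neurons alone. Summed oligodendrocyte markers stood at 13685 to 21560 CPM in vehicle and at 15345 to 29648 CPM in 15-HETrE libraries. Pan-neuronal markers stood at 2093 to 3608 CPM and at 3405 to 6446 CPM. The part of other cell types in Slc12a2 and in the ratio was not tested.

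**Figure D3:**
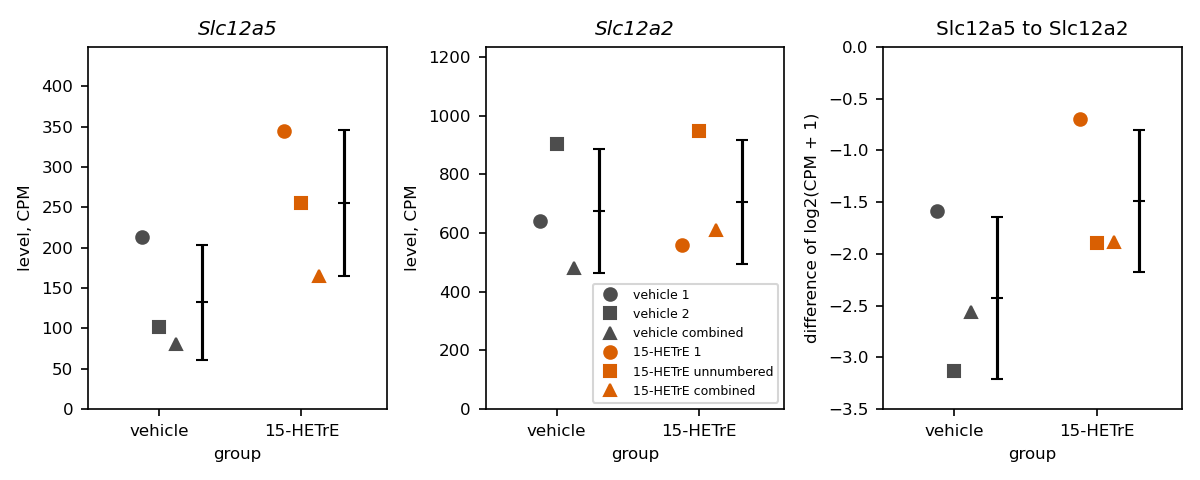
CPM of Slc12a5 (left) and Slc12a2 (middle) and the difference of their log2(CPM + 1) (right) by group, with 1 point per library and the mean ± SD beside the points. Slc12a5 spans 80.7 to 213 CPM in vehicle and 165 to 345 CPM in 15-HETrE libraries, while Slc12a2 covers nearly the same range in both groups, and the ratios overlap. All values are those of whole libraries and not of neurons alone.

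Slc12a7 (chromosome 13, 73733094 to 73816754, GRCm38), the potassium-chloride cotransporter KCC4, was the member with the largest negative change. It stood at 11.03, 11.15 and 3.96 CPM in vehicle and at 2.78, 0.716 and 1.22 CPM in 15-HETrE libraries, resting on 236, 248 and 22 reads and on 61, 12 and 9 reads. Every 15-HETrE library lay below every vehicle library, and vehicle combined was closer to 15-HETrE 1 than to the other vehicle libraries. The means of 8.71 ± 4.12 and 1.57 ± 1.07 CPM (SD, n = 3 per group) gave a log2 change of -1.89 (SE 0.68, unadjusted p 0.0194, adjusted p 0.462, limma), and leaving out any 1 library gave -2.31 to -1.63. The difference was -1.68 for the first prefix and -1.16 for the combined pair. Beside it, the pericyte markers had median differences of -1.38 over all 6, -2.05 among the first-prefix libraries and -0.94 between the combined ones, and the fibroblast markers had -2.83, -5.70 and -0.32. Their part in the Slc12a7 difference was not tested.

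Of the other chloride cotransporters, Slc12a4 (KCC1), a cotransporter of most cell types, stood at 39.5, 39.0 and 34.2 CPM in vehicle and at 23.4, 10.3 and 42.4 CPM in 15-HETrE libraries. The vehicle libraries were close together, and 15-HETrE combined exceeded all of them, so that the change of -0.75 (SE 0.48, adjusted p 0.643, limma) was -0.24 without 15-HETrE unnumbered and -1.22 without 15-HETrE combined. The difference was -0.72 for the first prefix and 0.30 for the combined pair. Slc12a9, a family member whose carried ion is not established, stood at 20.6, 36.9 and 13.7 CPM and at 20.03, 30.6 and 9.33 CPM, with the lowest values in the combined libraries. Slc12a8 had 18, 28 and 1 reads in vehicle and 22, 0 and 54 reads in 15-HETrE libraries, with the highest count in 15-HETrE combined.

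Of the bicarbonate transporters, Slc4a4 (chromosome 5, 88886818 to 89239653, GRCm38) had the largest change. It encodes NBCe1, the sodium-bicarbonate cotransporter of astrocytes. It stood at 46.7, 26.9 and 150 CPM in vehicle and at 106, 67.1 and 463 CPM in 15-HETrE libraries. The combined library was the highest of each group, and vehicle combined lay above 15-HETrE 1 and 15-HETrE unnumbered. The log2 change was 1.36 (SE 0.73, adjusted p 0.597, limma), 1.55 for the first prefix and 1.62 for the combined pair, and it was 0.54 without 15-HETrE combined, 0.82 without vehicle 2 and 2.04 without vehicle combined.

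The summed astrocyte markers stood at 1022, 634 and 7605 CPM in vehicle and at 3649, 1337 and 20712 CPM in 15-HETrE libraries. The 6 libraries thus ranked in the same order by Slc4a4 and by the sum of these markers. Slc1a2 made up most of that sum, at 655, 369 and 5696 CPM in vehicle and at 3025, 980 and 17252 CPM in 15-HETrE libraries. By themselves Slc1a2, Aqp4, Aldh1l1, Slc1a3 and Aldoc had the same order, while Gja1, Gfap and Gjb6 did not. Gja1 was lowest in 15-HETrE 1, at 23.1 CPM. Of the 30 members, 1 had this order, as did 0.950% of all genes. The astrocyte markers had median differences of 1.07 over all 6, 1.47 among the first-prefix libraries and 1.03 between the combined ones, and their part in the Slc4a4 difference was not tested.

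**Figure D4:**
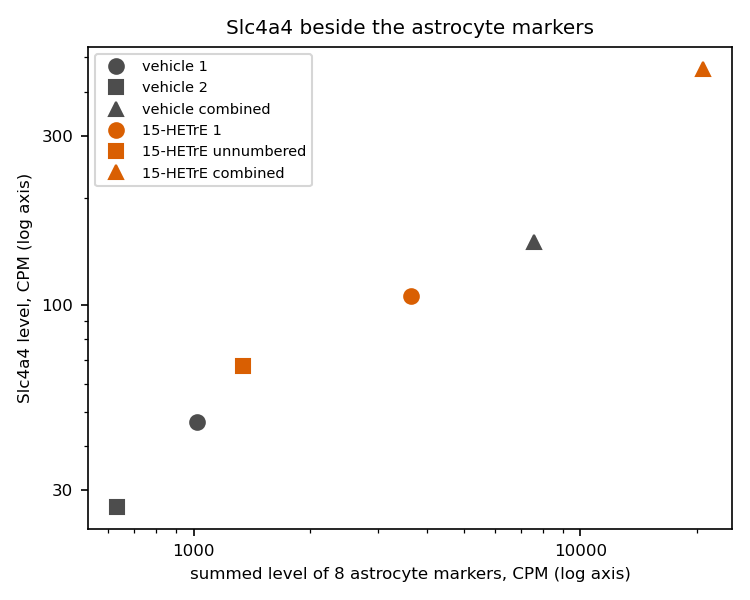
Slc4a4 in CPM against the summed CPM of 8 astrocyte markers, both on log axes, with 1 point per library. Both measures put the libraries in the same order, from vehicle 2 (634 CPM of markers, 26.9 CPM of Slc4a4) to 15-HETrE combined (20712 and 463 CPM). Most of the summed CPM is that of Slc1a2.

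The sodium-driven bicarbonate carriers of neurons had smaller differences. Slc4a10 stood at 192, 110 and 105 CPM in vehicle and at 276, 140 and 122 CPM in 15-HETrE libraries, with vehicle 1 above 15-HETrE unnumbered and 15-HETrE combined. Its log2 change was 0.36 (SE 0.36, adjusted p 0.766, limma). It went to 0.00 without 15-HETrE 1, 0.20 without vehicle combined and 0.24 without vehicle 2. It was 0.58 without 15-HETrE combined and 0.64 without vehicle 1. The difference was 0.92 for the first prefix and 0.22 for the combined pair, beside 1.14 and 1.19 for the pan-neuronal markers. The part of the neuronal content of the libraries in the Slc4a10 difference was not tested. Slc4a8, a sodium-driven chloride-bicarbonate exchanger found at synapses, stood at 107, 83.9 and 154 CPM and at 131, 134 and 182 CPM, a log2 change of 0.40 (SE 0.29, adjusted p 0.680, limma). It was 0.20 without vehicle 2, 0.25 without 15-HETrE combined and 0.63 without vehicle combined. Vehicle combined lay above 15-HETrE 1 and 15-HETrE unnumbered. Slc4a7, the electroneutral cotransporter NBCn1, stood at 61.2, 64.1 and 87.0 CPM and at 48.2, 43.4 and 62.8 CPM. Only 15-HETrE combined reached the vehicle range, and the change was -0.45 (SE 0.29, adjusted p 0.642, limma), or -0.30 without vehicle combined.

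The anion exchangers, which swap chloride for bicarbonate, had no common direction. Slc4a2 (AE2) stood at 58.5, 94.8 and 103 CPM in vehicle and at 57.5, 89.7 and 44.1 CPM in 15-HETrE libraries, and its difference was -0.37 for the first prefix and -1.21 for the combined pair (log2 scale). Exons of Fastk on the opposite strand cover 14.9% of its exon length. Slc4a3 (AE3), an exchanger of neurons and heart, stood at 40.8, 26.9 and 66.7 CPM and at 52.7, 47.9 and 32.6 CPM. It lay higher in 15-HETrE for the first prefix, by 0.66, and differed by -1.01 for the combined pair. Slc4a11, a transporter known from the cornea, had 0.676 to 5.37 CPM in the 6 libraries and overlapped fully.

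Among the sodium-proton exchangers, Slc9a5, a plasma membrane exchanger of the brain, stood at 9.12, 7.42 and 14.9 CPM in vehicle and at 9.01, 13.8 and 9.06 CPM in 15-HETrE libraries, a log2 change of 0.05. The groups overlapped.

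Slc9a9 (NHE9, of endosomes; chromosome 9, 94669909 to 95230445, GRCm38) stood at 22.8, 31.0 and 32.6 CPM in vehicle and at 48.8, 36.2 and 50.0 CPM in 15-HETrE libraries. The groups did not overlap, but 15-HETrE unnumbered was close to vehicle combined. The means were 28.8 ± 5.23 and 45.0 ± 7.63 CPM (SD, n = 3 per group), a log2 change of 0.63 (SE 0.32, adjusted p 0.580, limma).

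Slc9a8 (NHE8), of the Golgi, was the member with the narrowest spread, at 36.1, 34.3 and 39.7 CPM in vehicle and at 37.1, 36.6 and 32.7 CPM in 15-HETrE libraries. Its highest library was 1.22 times its lowest, and its log2 change was -0.05 (SE 0.30). Slc9a7 (NHE7), of the trans-Golgi network, was among the most uneven, at 18.5, 11.5 and 42.6 CPM and at 33.8, 4.71 and 32.3 CPM. Both its lowest library, 15-HETrE unnumbered, and its highest, vehicle combined, stood outside the range of the other group. Its difference was 1.15 for the first prefix and -0.39 for the combined pair.

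Epithelial and other rare members were near the limit of detection. Slc9a2, an exchanger of gut and kidney, stood at 0.982, 1.03 and 0 CPM in vehicle and at 1.59, 4.71 and 2.03 CPM in 15-HETrE libraries. These rest on 21, 23 and 0 reads and on 35, 79 and 15 reads. The groups did not overlap, and the log2 change was 1.16 (SE 0.71, adjusted p 0.633, limma). The gene was tested only because its 15-HETrE values lifted the mean, so its direction is no support for a difference. Where a library held 0 reads, up to 3 reads remain possible, which is 0.540 CPM in vehicle combined. Slc9a3, also of gut and kidney, had 0 to 56 reads in the libraries and a log2 change of -0.11.

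Under the mean of 1 CPM lay Slc4a5 (0.955 CPM), Slc9a4 (0.913), Slc12a1 (0.877), Slc12a3 (0.336), Slc4a9 (0.216) and Slc4a1 (0). Slc4a1, the band 3 protein of red cells, had 0 reads in each library, which allows up to 3 reads per library. Slc12a1, the target of loop diuretics in the kidney, had 65 reads in 15-HETrE unnumbered and 0 to 15 in the other libraries. Slc9a4, an exchanger of the stomach, had 29 of its reads in 15-HETrE combined and 0 to 14 in each of the others. No change was fitted for these 6 genes.

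The members were compared within each set of column names, which share no libraries. Both differences were above 0 for 13 of the 30 members, against 30.9% of all genes, and both below 0 for 6, against 26.3%. Among the 13 was Slc9a2, which was tested only because of its 15-HETrE values. Slc4a4, Slc12a5, Slc8a2 and Slc8a1 were high on both, and Slc12a7 was low on both. The members' median difference was 0.37 for the first prefix and 0.23 for the combined pair, where that of all genes was 0.00 and 0.08. That of the pan-neuronal markers was 1.14 and 1.19, and the part of neuronal content in the members' differences was not tested. 15-HETrE unnumbered enters none of these values.

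**Figure D5:**
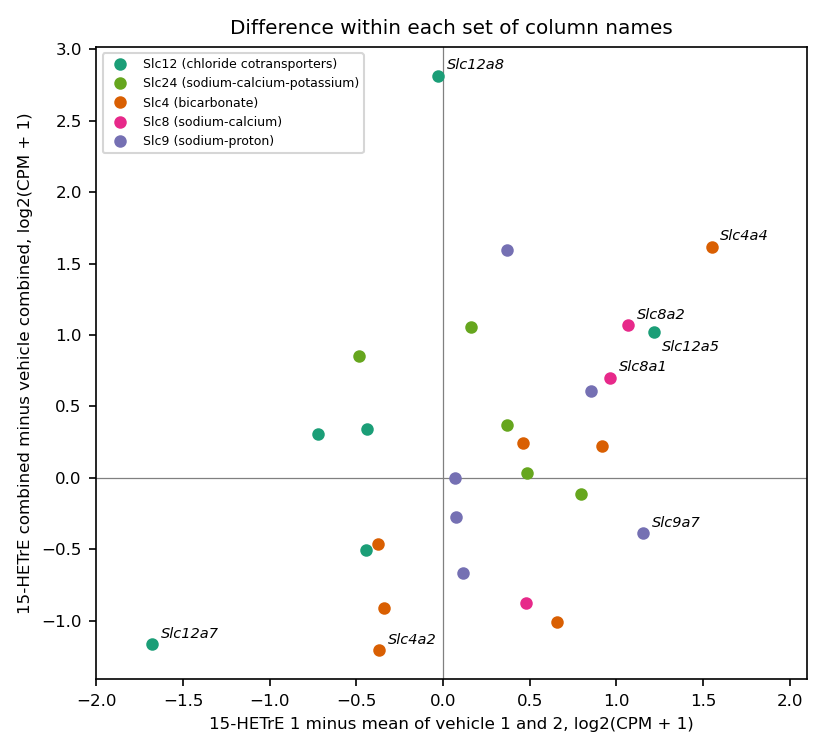
Difference of log2(CPM + 1) for 27 of the tested members: 15-HETrE 1 minus the mean of vehicle 1 and vehicle 2 (horizontal) against 15-HETrE combined minus vehicle combined (vertical), coloured by family. In the upper right quadrant 11 of them lie, among them Slc4a4, Slc8a2, Slc12a5 and Slc8a1, and in the lower left 5, with Slc12a7 farthest out.

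Genes that regulate or work beside these carriers were read from lists chosen with earlier results of these data known, and none of their genes passed limma over all genes. Their counts are read against 51.0% of all genes with a change above 0, and 4.27% higher and 5.23% lower at an unadjusted p under 0.05. Genes named below as without overlap are read against 6.84% of all genes on the higher side and 8.32% on the lower. In the WNK kinase pathway, which activates NKCC1 and inhibits the potassium-chloride cotransporters, 6 of 11 genes had a change above 0 and the median was 0.09; 1 had an unadjusted p under 0.05. That gene, Wnk2, a WNK kinase of the brain, stood at 59.1, 42.7 and 81.5 CPM in vehicle and at 101, 88.4 and 149 CPM in 15-HETrE libraries, with no overlap. Its log2 change was 0.89 (SE 0.32, adjusted p 0.462, limma). Cab39l, a partner of the kinases downstream of WNK, had 63.3 ± 2.76 and 40.8 ± 12.7 CPM (SD, n = 3 per group), without overlap. Klhl3, an adaptor for WNK degradation, had 5.38 ± 2.56 and 10.2 ± 2.71 CPM, a log2 change of 0.88 (SE 0.59, adjusted p 0.661, limma). Its groups were only just apart, with vehicle combined at 7.01 CPM (39 reads) and 15-HETrE 1 at 7.06 CPM. Wnk4 had 8.42 ± 9.23 and 4.01 ± 3.36 CPM.

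Of the partners and regulators of the exchangers, 8 of the 10 tested had a change above 0, with a median of 0.20, and 0 had an unadjusted p under 0.05 (limma). The smallest p belonged to Tesc and Chp2, calcium-binding partners of sodium-proton exchangers, and to Ahcyl2 and Slc9a3r1, all with overlapping libraries. Of 16 carbonic anhydrases, which supply bicarbonate and protons to these carriers, 11 were tested and 8 of them had a change above 0, with a median of 0.51. Their median difference was 0.61 for the first prefix and 0.10 for the combined pair. Of these 11, 1 (Car13) had an unadjusted p under 0.05 (limma). Car13, a cytosolic isoform, stood at 9.72, 9.54 and 8.09 CPM in vehicle and at 0.137, 4.48 and 2.84 CPM in 15-HETrE libraries, without overlap, a log2 change of -1.81 (SE 0.72, adjusted p 0.489, limma). Car14 was at 0.899 CPM in vehicle combined and between 29.0 and 69.8 CPM in the other 5 libraries, and Car8 and Car15 overlapped between groups. Of 28 listed chloride channels and other anion exchangers, 27 matched the table and 19 were tested, with 8 above 0 and a median of -0.20. Their median difference was -0.09 for the first prefix and 0.19 for the combined pair. Of these 19, 1 (Lrrc8c) had an unadjusted p under 0.05 (limma). Lrrc8c, a subunit of the volume-regulated anion channel, stood at 64.1, 72.7 and 84.0 CPM and at 42.4, 63.0 and 34.6 CPM, without overlap, a change of -0.68 (SE 0.31, adjusted p 0.524, limma). Another subunit gene, Lrrc8b, had 151 ± 36.8 and 213 ± 62.2 CPM (SD, n = 3 per group). The calcium-activated chloride channel gene Ano1 and the transporter gene Slc26a8 had changes of -1.16 and 1.07 with overlapping libraries.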

How the data were processed

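RNA was measured in 6 libraries, 3 per group. The tools named by the submitters' processing notes are HISAT2, Trimmomatic, edgeR and featureCounts, with the mm10 build; their versions and settings, and whether strand was used, were not given in the sources used here. Values were deposited as a signal, CPM scaled with a factor per library to judge from the column sums (960982 to 1080354), which unscaled CPM would make equal. Every value was a whole multiple of the smallest value above 0 in its column (100% within 1e-04 reads), so whole reads were recovered. The columns were assigned by name; 3 carry only a group, and the number of other columns was 0. Plain CPM had been assumed when the test was chosen, and the test was kept.

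Genes averaging 1 CPM or more were kept, taken as log2(CPM + 1) (pseudocount 1) and fitted with limma 3.58.1 (R 4.3.3) with group as the only term and a variance trend, two-sided; p-values were adjusted by Benjamini-Hochberg over the 14523 genes, with a threshold of 0.05. This scale understates the change of low genes. The members and lists were chosen with earlier results of these data known. All members were to be named (3 are not reported here, though counts over the 30 include them), with a fitted change for the 12 with the smallest p, Slc12a2, Slc12a5 and the most abundant of each family, and 4 genes per further list. A floor of 3 reads covers counting error only, and no use of molecular identifiers is recorded. Alternatives were other pseudocounts, filters and scalings, edgeR 4.0.16, DESeq2 1.42.0, library weights, a prefix term and leaving out libraries; scripts were tested on simulated data.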

Additional observations from a re-analysis of the deposited data

How the results depend on the processing

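With any 1 library left out, limma called 0 to 2 genes higher and 0 to 108 lower over all genes, and 0 members; the 2 and 108 came without vehicle combined. Without both combined libraries it called 3 and 201, with the prefix term 1 and 7, with library weights 1059 and 1366 (6 members higher and 1 lower), and DESeq2 called 35 and 130. The members' median was 0.20 to 0.32 with 1 library left out and 0.46 with weights, and the Slc12a5 to Slc12a2 difference was 0.54 to 1.36 with 1 library left out; it kept its sign with other pseudocounts and scalings, without both combined libraries and with the prefix term, and was not computed for the other alternatives. Slc12a2 reversed, at -0.15 without vehicle combined, -0.16 without 15-HETrE unnumbered, -0.061 without both combined libraries, -0.11 with the prefix term and -0.39 with weights; the cause was not tested. With 1 library left out, it ranged from -0.16 to 0.31. Of the other members chosen for a printed fit (the 12 with the smallest p, Slc12a5 and the most abundant of each family), none reversed in an alternative, and 6 passed with weights; further members and the genes of other lists were not refitted by name. Where 30 members were tested, those with a change above 0 ranged from 18 (prefix term) to 24 (without 15-HETrE combined). A pseudocount of 5 took Slc12a7 to -1.02 and Slc9a2 to 0.44, and one of 0.1 took Slc9a2 to 2.38. No paired analysis was possible because the number 1 is the only replicate number that columns of both groups share; the prefix, fitted as a batch term above, is not a replicate number. Members with few reads in the combined libraries, such as Slc12a7 and Slc9a2, are limited by depth.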
